A study of Mus musculus with 9 samples.

Results

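Histone genes encode the proteins that DNA is wound around, and their transcripts were followed here in bulk RNA of bone from aged and young mice. The members were every row of the deposited gene table whose symbol starts with one of the names of the H1, H2A, H2B, H3 and H4 gene clusters, the H2A.Z genes or the H3.3 genes. This gave 82 genes of 56980 in the table. Of these, 61 are replication-dependent genes, 6 are variant genes, 6 are germ cell forms, 8 are pseudogenes and 1 is the antisense gene H3f3aos.

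The samples were 5 aged mice (20 months) and 4 young mice (3 months), all wild type and untreated, of the C57BL/6 strain, and stated to be female. The source was labelled bone marrow, while the extraction protocol named homogenised trabecular bone, and both groups share this preparation. The study asked which genes differ with age in relation to sensory innervation of bone.

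Replication-dependent histone genes are transcribed while a cell copies its DNA, in S phase. Their messenger RNAs, unlike other messenger RNAs, normally end in a short stem-loop in place of a poly(A) tail, and the stem-loop binding protein (SLBP) holds this end. Variant histone genes, such as those of H2A.Z and H3.3, are transcribed through the whole cell cycle and their messenger RNAs carry poly(A) tails. In bone marrow, the dividing cells that use the replication-dependent genes are largely blood cell progenitors.

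Young 4, aged 3 and aged 4 had 5.7% to 6.62% of their counts in ribosomal protein genes, against 2.92% to 3.16% in the other 6 libraries, and they are shown apart throughout. The sex transcripts went against the stated sex in 5 libraries: aged 5 and all 4 young mice had 154 to 210 CPM (counts scaled to a common library size) over 4 Y-linked genes and Xist below 0.4 CPM. The other 4 aged libraries had Xist at 424 to 936 CPM. Age and this difference therefore cannot be told apart except in aged 5 against the young mice. The libraries held 19804883 to 23548594 estimated counts each.

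The stem-loop was looked for in the annotated transcripts because it is a feature by which the 2 classes of messenger RNA differ. The motif searched was GG, any 3 bases, TT, any base, T, any base, A, any 3 bases and CC, on the transcript strand only, within the first 100 bases after the stop codon, with the first 6 bases complementary to the last 6. It was found in 43 of the 58 members with an annotated 3′ UTR of at least 16 bases, and in 7 of 21011 other protein-coding genes (0.0333%) in GENCODE M21. Several of those 7, including H2afx, Hist3h2a and Hist4h4, are histone genes under M21 symbols that the selection did not reach. Among the 43, the form of H1f2 was carried by 24 members, and the H4 genes carried forms found in no other family. The sequences below are from 5 replication-dependent genes named in the results, with the stem arms in capitals and the loop and 5 bases on each side in lower case. H1f2, H4c9, H3c8 and H4c17 lie on chromosome 13 and H2ac18 on chromosome 3.
H1f2: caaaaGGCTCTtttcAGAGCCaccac
H2ac18: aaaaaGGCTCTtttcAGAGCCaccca
H3c8: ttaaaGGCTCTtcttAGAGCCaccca
H4c9: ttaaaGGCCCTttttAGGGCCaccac
H4c17: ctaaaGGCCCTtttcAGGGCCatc
The annotated transcript of H1f2 ran for 840 bases past its stem-loop and that of H4c9 for 330 bases. The transcripts of H2ac18 and H4c17 ended 35 and 3 bases past theirs. H2bc4 and H2bc21, both H2B genes with long annotated 3′ UTRs, held no match in this window.

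The counts of the replication-dependent genes lay mostly in genes annotated with a longer 3′ end. The 19 members whose transcript runs over 100 bases past the stem-loop held 56.7% of all replication-dependent counts, and 6 members with a 3′ UTR but no match held another 28%. The 23 members whose transcript ends within 100 bases of the stem-loop held 14.4%. The 13 members with no annotated 3′ UTR of 16 bases held 0.907%. These are shares of counts, which rise with transcript length, and H1f2 alone held 36.3% to 44.6% of replication-dependent counts per library. In the deposited TPM, which divide by gene length, medians per member were taken, a different measure from a share of summed counts. Members ending within 100 bases had a median of 2.09 TPM, with 5 of 23 above 5 TPM. Those running further had a median of 1.08 TPM, with 2 of 19 above 5 TPM. The 6 members with no match had a median of 1.8 TPM, with 2 above 5 TPM. Other RNAs known to lack poly(A) tails were mostly near 0: Terc, the telomerase RNA, Rnu7, the small nuclear RNA of histone messenger RNA processing, and Vaultrc5 had no count in any library. Rn7sk, a regulator of transcription elongation, was at 0.755 to 5.7 CPM, and Rn7s1 and Rn7s2, RNAs of the signal recognition particle, were each at 0.517 to 8.27 CPM. These 3 were above the mean of most replication-dependent genes. Malat1, a long nuclear RNA whose end is also not polyadenylated, was at 276 to 512 CPM. The sources used here do not give how RNA was selected for the libraries, and its part in these levels was not tested.

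Variant genes made up most of the signal of the members. They held 89.8% of the counts of the 82 members and the replication-dependent genes held 10.1%. Histone genes that the selection did not reach, such as H2afx, are not in these shares. In the deposited TPM, which divide by gene length and so allow genes to be compared, H3f3a, which encodes H3.3, averaged 1160 TPM over the 9 libraries. H2az1, encoding H2A.Z, averaged 728 TPM, and H3f3b, the other H3.3 gene, averaged 369 TPM. The highest replication-dependent gene was H1f2, a linker histone, at 76.2 TPM, and H2az2, the other H2A.Z gene, averaged 89.5 TPM, with overlapping ranges. H2bc4 averaged 53.3 TPM, H2ac18 averaged 43.4 TPM and H4c9 averaged 43.2 TPM. The ranges of these 3 genes over the libraries overlapped, so their order is not resolved.

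The replication-dependent signal was concentrated in few genes. H1f2, H2bc4, H4c9, H2bc21, H2ac18 and H2ac19 held 84.3% of the replication-dependent counts, and 42 of the 61 members averaged below 1 CPM. At least 1 count was found for 60 of the 61 members, H2ac21 being the exception, and 30 passed the filter on low counts. By family, 4 of 5 H1 genes, 7 of 16 H2A genes, 8 of 16 H2B genes, 5 of 12 H3 genes and 6 of 12 H4 genes passed. H3 genes were the lowest family: they summed to 13.6 ± 4.4 TPM in aged mice (SD, n = 5) and 13.1 ± 2.36 TPM in young mice (SD, n = 4). The H4 genes summed to 83.8 ± 3.92 TPM in aged mice and 97.2 ± 6.44 TPM in young mice (SD, same n). The H4 sums did not overlap, at 79.3 to 87.2 TPM in aged mice and 88.7 to 104 TPM in young mice. The sums of the H1, H2A, H2B and H3 genes overlapped, and no family sum was tested. The H2A genes summed to 99.9 ± 31 TPM in aged mice and 87.8 ± 8.85 TPM in young mice. The germ cell forms were at or near 0, the highest being H1f9 at a mean of 0.0811 TPM, and none of them nor of the 8 pseudogenes passed the filter.

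**Figure D1:**
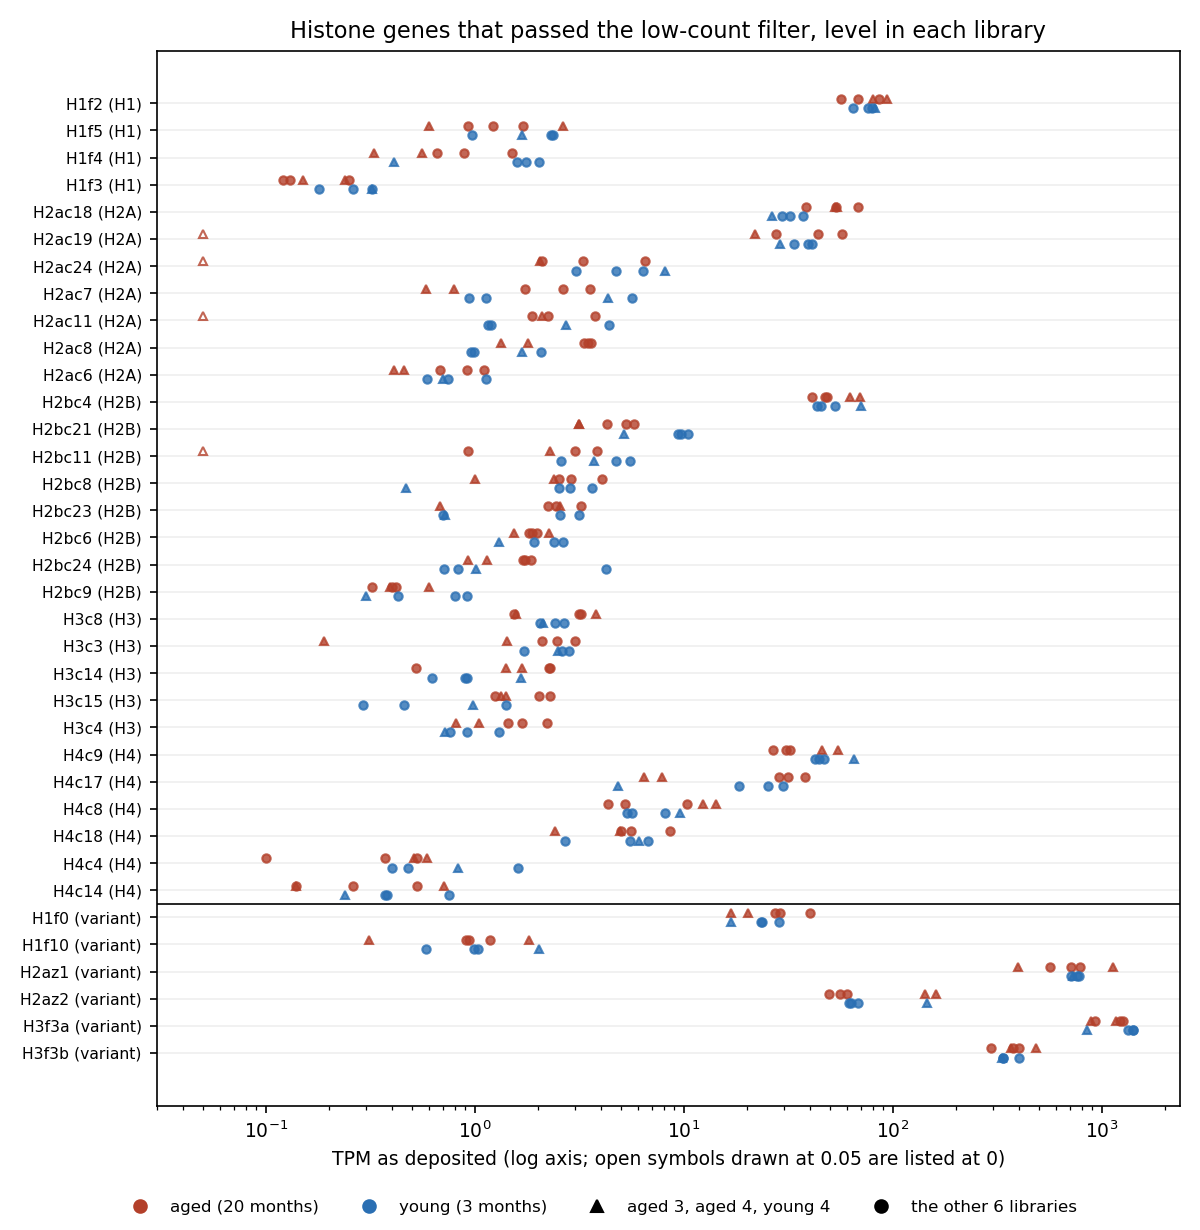
Deposited TPM (log axis) of the 36 histone genes of the 2 main classes that passed the low-count filter, 1 symbol per library, aged in red above young in blue, with aged 3, aged 4 and young 4 as triangles. H3f3a, H2az1 and H3f3b stand highest, and few replication-dependent genes exceed 20 TPM; open symbols are listed at 0.

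Summed over the class, the replication-dependent genes did not separate the ages. Their sum was 136, 204, 418, 380 and 207 CPM in aged 1 to 5, against 215, 203, 222 and 543 CPM in young 1 to 4. Aged 3, aged 4 and young 4 were the highest libraries, and the groups overlapped. The mean was 269 ± 123 CPM in aged mice (SD, n = 5) and 296 ± 165 CPM in young mice (SD, n = 4), a log2 difference of -0.14. The 6 variant genes summed to 1500, 1480, 3170, 3900 and 1860 CPM in aged 1 to 5, against 1980, 2000, 2040 and 4150 CPM in young 1 to 4. The same 3 libraries were again highest, and the means were 2380 ± 1090 CPM in aged mice and 2540 ± 1070 CPM in young mice. Both differences are smaller than these SDs, which also contain the difference between those 3 libraries and the other 6. With young 4 left out, both turned positive, to 0.34 for the replication-dependent sum and 0.25 for the variant sum. Within the library sets the log2 differences of the means were -0.22 for the replication-dependent sum and -0.32 for the variant sum over the 6 other libraries, and -0.44 and -0.23 in aged 3 and aged 4 against young 4. The replication-dependent sums still overlapped among the 6 other libraries, while every variant sum in CPM was lower in aged mice within both sets. In the deposited TPM the variant sums overlapped in the 6 other libraries, aged 1 at 2470 lying above young 2 at 2460. In the 3 libraries aged 4, at 2950 TPM, lay above young 4 at 2080 TPM. In aged 5 against young 1 to 3 the log2 differences were -0.04 and -0.11.

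The scale of the values changed how far the 3 libraries stood apart. Aged 3, aged 4 and young 4 averaged 447 ± 85.3 CPM of replication-dependent transcripts (SD, n = 3) and the other 6 libraries averaged 198 ± 31.1 CPM (SD, n = 6). In the deposited TPM the same sums were 351 ± 29.4 and 361 ± 28.3. As a share of all counts, with no library scaling, they were 0.0351% ± 0.00277 and 0.0221% ± 0.00315. In TPM the age groups averaged 352 ± 32.5 in aged mice and 364 ± 21.4 in young mice, and they overlapped.

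**Figure D2:**
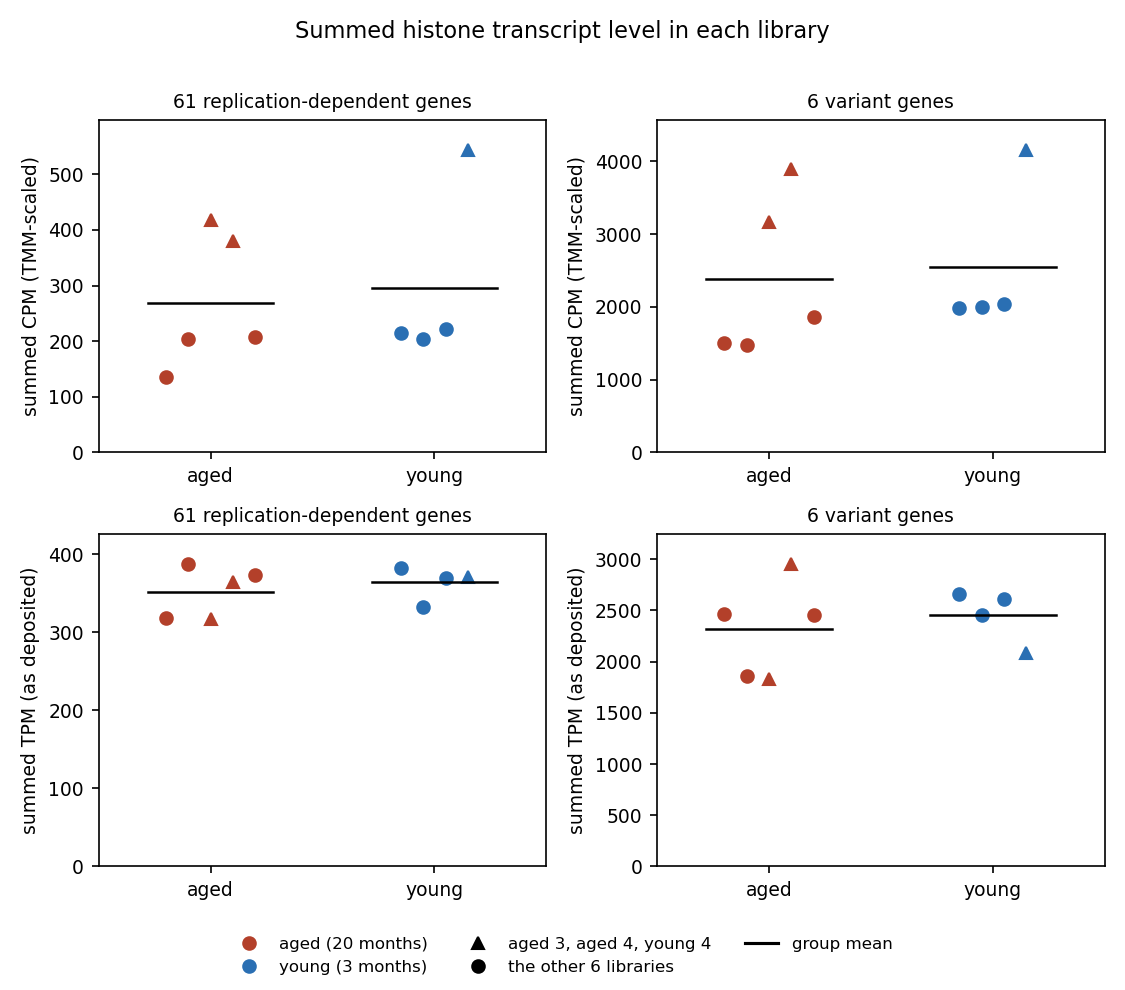
Summed level of the 61 replication-dependent and 6 variant genes in each library, in TMM-scaled CPM (top) and in deposited TPM (bottom), aged left of young; bars are group means and triangles are aged 3, aged 4 and young 4. The triangles lie above the circles in CPM, while in TPM the replication-dependent sums lie between 317 and 387 in every library.

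Gene by gene, no histone gene passed the test of age. Age was tested with the quasi-likelihood method of edgeR over 16576 genes, with Benjamini-Hochberg adjustment and a threshold of 0.05. It called 0% of all genes, the smallest adjusted p being 0.255, while 4.15% of genes were higher and 4.64% lower at an unadjusted p under 0.05. Among the members tested, 1 was lower and 0 were higher at that unadjusted level. DESeq2 called 1 member lower, against 1.01% of all genes, and 0 higher, against 1.16%. The median log2 fold change was -0.16 over the 30 replication-dependent genes, -0.17 over the 6 variant genes and 0.03 over all genes tested. Of the replication-dependent genes 11 were above 0 and 19 below, with a range from -1.53 to 0.84.

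H2bc21, an H2B gene of the cluster on chromosome 3, was the member with the smallest p. It had 6.76, 10.8, 13.0, 10.3 and 11.2 CPM in aged 1 to 5, against 20.0, 20.7, 19.6 and 24.9 CPM in young 1 to 4. Every aged library lay below every young library, including aged 5 and the 3 libraries shown apart. In CPM it was the only member tested whose groups did not overlap. Over all genes tested, 2.78% had every aged library lower and 1.67% had every aged library higher. Its fitted log2 fold change was -1.03 ± 0.21 (SE), and edgeR gave an adjusted p of 0.255. A two-sided exact permutation test of its log2 CPM gave p = 0.00794 over 126 arrangements, the smallest they can give. The lack of overlap nearly fixes this p, and the gene was chosen from these data, so it adds no separate evidence. DESeq2 gave an adjusted p of 0.000753. In the authors' deposited table it had a log2 fold change of -1.03 with an adjusted p of 0.00258, the only member called there, against 0.682% of genes called lower and 0.977% called higher in that table. In TPM the groups overlapped: 4.29, 5.29, 3.15, 3.13 and 5.77 in aged 1 to 5, against 10.4, 9.64, 9.38 and 5.17 in young 1 to 4. Young 4 was the low value there, and it lay above aged 3 and aged 4.

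Among the 45 members below the low-count filter, 4 also had every aged library below every young one, and 0 had the reverse. The 4 were H2bc7, H2bc3, H3c6 and H4c6, named after their values were seen. The share over all genes below the filter was not counted, so whether 4 is more than usual is not known. H2bc7 was at 0.104 to 0.301 CPM in aged mice and 0.366 to 0.882 CPM in young mice. H4c6 was at 0 in aged 1 to 4 and at 0.0376 CPM in aged 5, against 0.0419 to 0.475 CPM in young mice. In the authors' deposited table H4c6 had a p of 0.00176 with an adjusted p of 1, and H2bc7 had a p of 0.031 with an adjusted p of 0.397. With no low-count filter edgeR called 0 members.

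With the library set as a term beside age, 3 members passed the edgeR test and all were lower in aged mice: H2bc21, H4c9 and H2az2. This fit called 1.31% of all genes lower and 0.615% higher. At an unadjusted p under 0.05 it had 6 members lower and 1 higher, against 10.2% and 8.59% of all genes. H2bc21 was at -1.08 ± 0.17 (log2, SE) with an adjusted p of 0.0405. In aged 5 against young 1 to 3, libraries with the same sex transcripts, the log2 fold changes were -0.84 ± 0.31 for H2bc21, -0.59 ± 0.27 for H4c9 and -0.32 ± 0.16 for H2az2 (SE), none called. The 3 calls held without aged 3 or without aged 5, and the number called was 0 when aged 1, 2 or 4 or any young library was left out. In those same fits the calls over all genes fell to between 0 and 2, against 319 with every library, while the log2 fold changes were -1.13 to -0.95 for H2bc21 and -0.80 to -0.62 for H4c9, so the loss was not particular to these members.

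H4c9, the highest H4 gene, had 8.40, 13.0, 37.8, 36.5 and 11.9 CPM in aged 1 to 5, against 16.5, 17.8, 19.5 and 63.7 CPM in young 1 to 4. Among the 6 other libraries every aged value lay below every young one, and aged 3 and aged 4 lay below young 4. The log2 fold change was -0.45 ± 0.57 (SE) on age alone and -0.72 ± 0.14 with the library set, where the adjusted p was 0.0437 in edgeR. Its TPM were lower within both sets as well, at 26.8, 32.2 and 30.7 in aged 1, 2 and 5 against 42.4 to 46.9 in young 1 to 3.

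H2az2 had 40.8, 42.9, 139, 131 and 44.3 CPM in aged 1 to 5, against 50.1, 57.3, 58.2 and 214 CPM in young 1 to 4. Aged values were again lower within both sets and mixed across them. The log2 fold change was -0.25 ± 0.56 (SE) on age alone and -0.46 ± 0.10 with the library set, where the adjusted p was 0.0496 in edgeR. In TPM, aged 3 at 160 exceeded young 4 at 145, so the groups overlapped within that set.

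**Figure D3:**
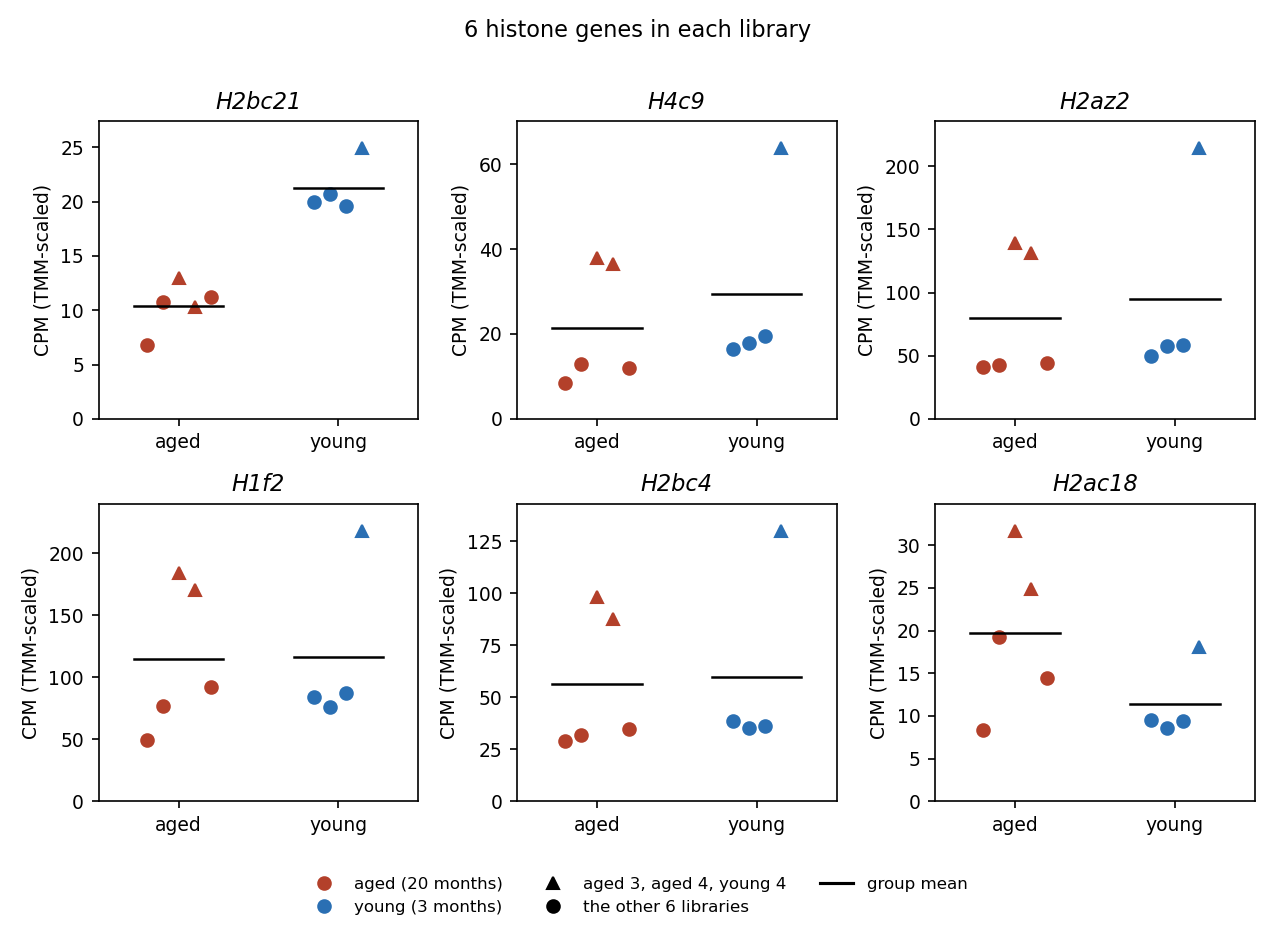
TMM-scaled CPM of 6 histone genes in each library, aged left of young, with bars at group means and aged 3, aged 4 and young 4 as triangles. H2bc21 has no overlap between the ages; H4c9 and H2az2 are lower in aged mice within circles and within triangles.

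Across the class, 4 of the 30 replication-dependent genes had lower CPM in aged mice within both library sets, namely H2bc21, H2bc4, H4c9 and H1f4. So had 2 of the 6 variant genes, H3f3a and H2az2. Over all genes tested this was so for 9.64%, and 5.67% were higher in both, with no member higher in both. In TPM H2bc21 and H4c9 stayed lower in both sets. H2bc4 overlapped among the 6 other libraries, and H1f4 and H2az2 overlapped in aged 3 and aged 4 against young 4. H3f3a there was reversed, at 885 and 1170 TPM in aged 3 and aged 4 against 850 in young 4. H2bc4 had 28.9, 31.8, 98.1, 87.7 and 34.9 CPM in aged 1 to 5, against 38.5, 35.2, 36.1 and 130 CPM in young 1 to 4. Its log2 fold change was -0.29 ± 0.10 (SE) with the library set, with an adjusted p of 0.171 in edgeR. H1f2 had 49.3, 76.4, 184, 170 and 92.2 CPM in aged 1 to 5, against 84.3, 75.9, 87.0 and 218 CPM in young 1 to 4. Its groups overlapped, with a log2 fold change of -0.03 ± 0.45 (SE).

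H1f4, another linker histone gene, had 0.732 to 2.18 CPM in aged mice and 1.42 to 3.06 CPM in young mice, with a log2 fold change of -0.84 ± 0.40 (SE) and an adjusted p of 0.617 in edgeR. It overlaps H2bc6, listed as Hist1h2be in M21, so reads of the 2 genes may be split between them.

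H2ac18 lay in the other direction. It had 8.40, 19.2, 31.7, 24.9 and 14.4 CPM in aged 1 to 5, against 9.57, 8.59, 9.35 and 18.1 CPM in young 1 to 4. At 0.79 ± 0.39 (log2 fold change, SE) its adjusted p was 0.645 in edgeR. In TPM every aged library lay above every young one, at 38.2 to 67.9 in aged mice and 26.3 to 37.0 in young mice. How many of all genes do so in TPM was not counted. H2ac19 overlapped in TPM, at 0 to 56.9 in aged mice and 28.8 to 41.0 in young mice. H2ac18 and H2ac19 are close copies on opposite strands of chromosome 3, and H2ac19 was listed at 0 in aged 3, where H2ac18 was highest. Their counts can therefore have been divided between them by the authors' quantification, and their sum is given here. It was 13.4 to 33.5 CPM in aged mice and 16.6 to 34.6 CPM in young mice, and the groups overlapped.

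The remaining named replication-dependent genes had wide errors. H2ac24, at -1.53 ± 0.85 (log2, SE), was the lowest of all, at 0 to 1.2 CPM in aged mice and 0.532 to 3.87 CPM in young mice. H2bc11 was at -1.23 ± 0.79. The H3 genes H3c8 and H3c14 were at 0.19 ± 0.56 and 0.37 ± 0.66, and H3c3 at -0.74 ± 0.58. The H4 genes H4c17 and H4c8 were at 0.15 ± 0.39 and 0.37 ± 0.71, and the linker histone gene H1f5 at -0.27 ± 0.67. None of these passed the test.

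None of the variant genes passed on age alone. H3f3a had 585, 583, 1310, 1310 and 736 CPM in aged 1 to 5, against 843, 897, 912 and 1510 CPM in young 1 to 4, with a log2 fold change of -0.20 ± 0.34 (SE). H3f3b was at 0.09 ± 0.41, although both genes encode the same H3.3 protein. H2az1 had 378 to 1270 CPM in aged mice and 487 to 1200 CPM in young mice, at -0.14 ± 0.44. H1f0, the linker histone of resting and differentiated cells, was at 0.11 ± 0.23, and H1f10, a further linker variant, at -0.40 ± 0.77. H3f3a overlaps the antisense gene H3f3aos, at 0.551 to 1.65 CPM in aged mice and 0.610 to 2.05 CPM in young mice, whose reads cannot be told apart from it where strand was not used.

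**Figure D4:**
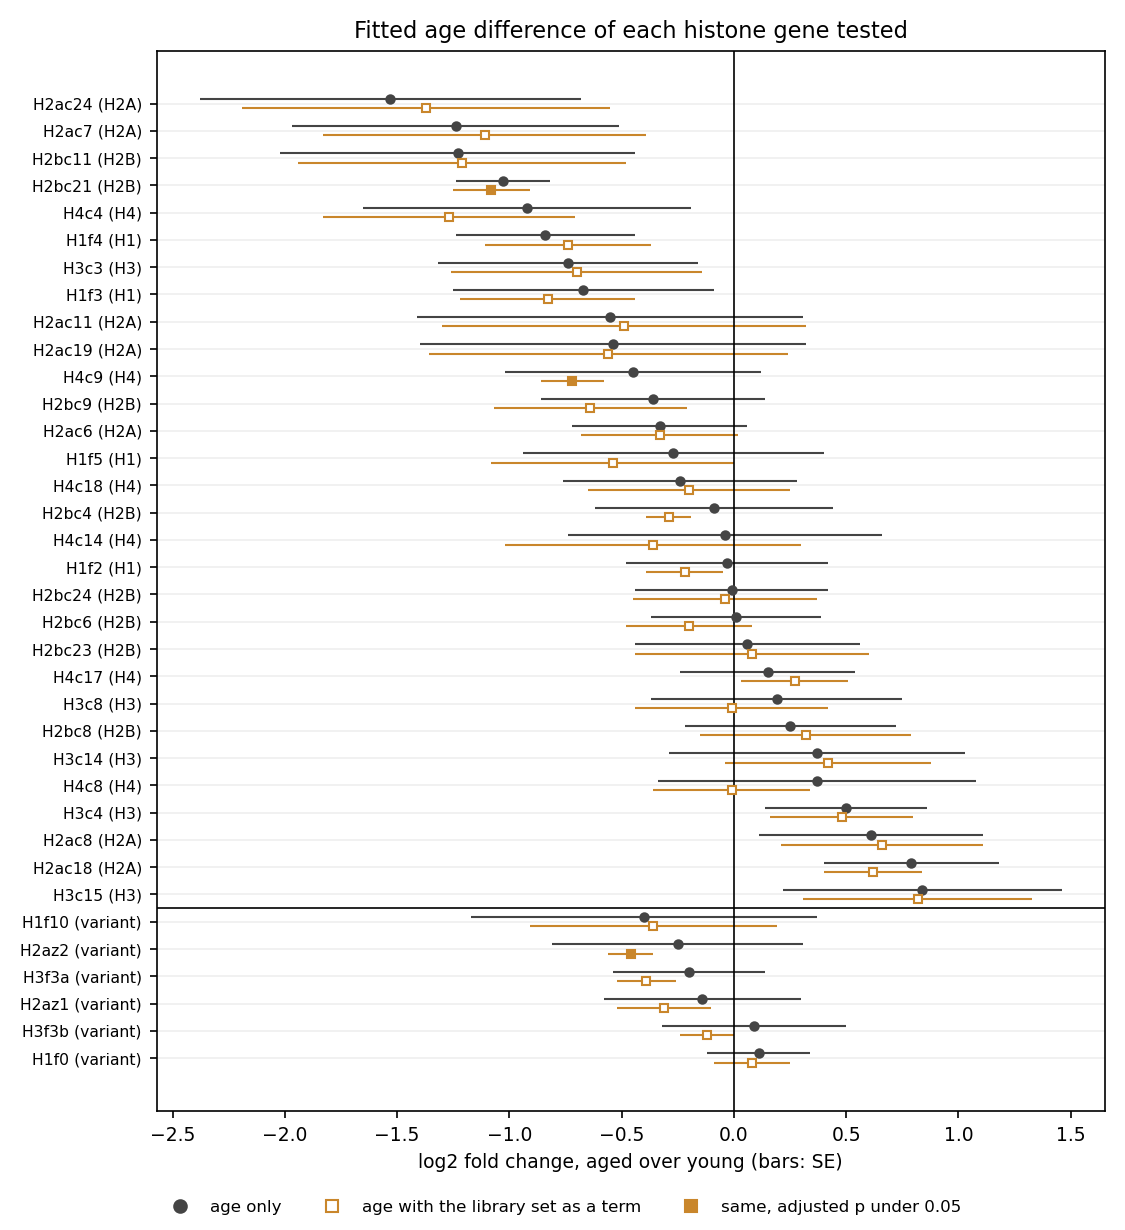
Fitted log2 fold change, aged over young, with SE bars, for the 30 replication-dependent and 6 variant genes tested, on age alone (grey circles) and with the library set added (squares; filled where the adjusted p is under 0.05). H2bc21, H4c9 and H2az2 are the filled squares, at -1.08, -0.72 and -0.46.

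Genes of DNA replication were set beside the histone genes because both are used in S phase. All 29 listed S phase genes had a log2 fold change below 0, with a median of -0.51, and 11 had groups that did not overlap, where 2.78% of all genes did so in that direction. None passed the test on age alone, and 18 passed it, lower, with the library set, where 1.31% of all genes did. With aged 1, 2 or 4 or any young library left out, that fit called at most 2 genes in the whole table, so most of these calls, and those of Slbp and Mcm2 given here, rest on the full set of libraries. Mcm2, a subunit of the replicative helicase, averaged 150 ± 22.1 CPM in aged mice (SD, n = 5) and 254 ± 18.3 CPM in young mice (SD, n = 4), with an adjusted p of 0.0405 in edgeR with the library set. Cdc6, which loads that helicase, averaged 62.4 ± 17.2 CPM in aged mice and 119 ± 8.66 CPM in young mice. Within both library sets 25 of the 29 were lower, against the 4 of 30 replication-dependent histone genes given above and 9.64% of all genes. These counts are not on equal terms, because counting error is larger at low counts. Each S phase gene averaged at least 16.1 CPM in either age group, while 6 of the 61 replication-dependent members averaged above 5 CPM. Of those 6, H2bc21, H2bc4 and H4c9 were lower in both sets, and H1f2, H2ac18 and H2ac19 were not. The sum of replication-dependent transcripts over the sum of S phase transcripts was 0.0557, 0.0832, 0.101, 0.102 and 0.0665 in aged 1 to 5, against 0.055, 0.0474, 0.0562 and 0.0877 in young 1 to 4. Within the 6 other libraries aged 1 overlapped the young range, and aged 3 and aged 4 lay above young 4. The difference in this ratio was not tested.

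**Figure D5:**
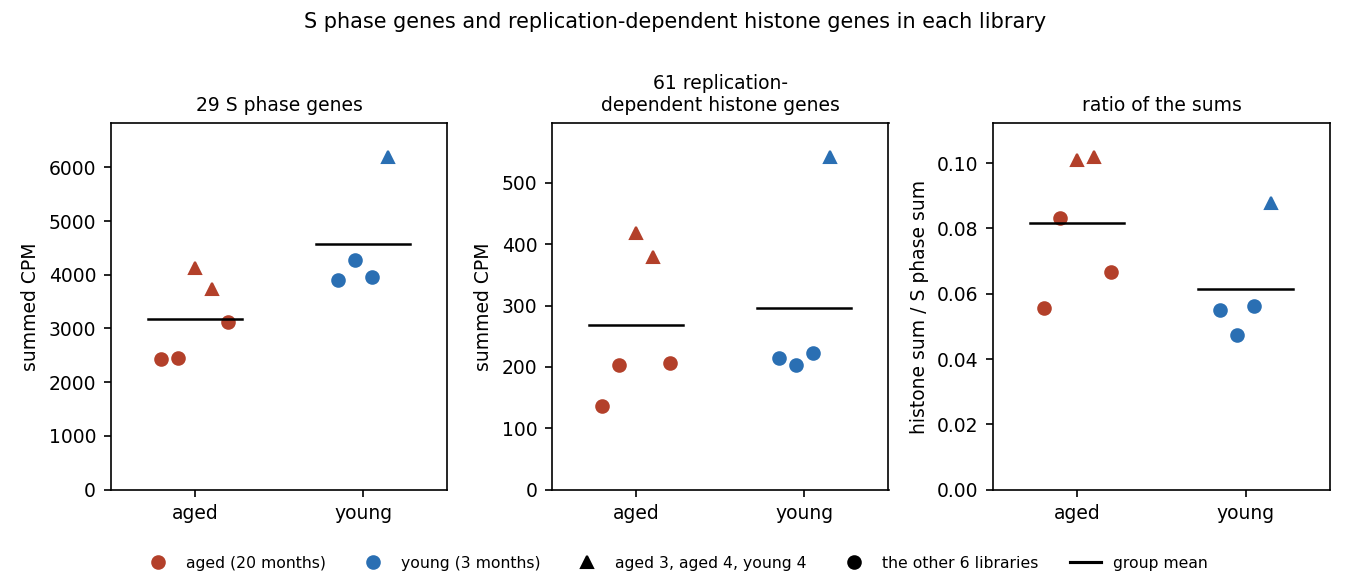
Summed CPM of 29 S phase genes, of the 61 replication-dependent histone genes and their ratio in each library, aged left of young, with bars at group means and aged 3, aged 4 and young 4 as triangles. The S phase sum is 2440 to 4130 CPM in aged mice and 3900 to 6200 CPM in young mice, while the histone sums overlap widely.

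Genes that make, process and place histones were counted in the same way. All 19 genes of histone messenger RNA synthesis and processing were tested, with a median log2 fold change of -0.18. Cpsf3, the cleavage enzyme, was at 0.20 ± 0.14 (log2, SE), and the other 18 were below 0. None passed on age alone. Every aged library was below every young one for 1, Cpsf2, and above for 1, Cpsf3, against 2.78% and 1.67% of all genes. Slbp, the stem-loop binding protein, had 102, 115, 228, 303 and 135 CPM in aged 1 to 5, against 175, 206, 198 and 392 CPM in young 1 to 4. It was lower in aged mice within the 6 other libraries and within the 3, with a log2 fold change of -0.67 ± 0.13 (SE) and an adjusted p of 0.0445 in edgeR with the library set. Of the 16 replication-coupled chaperones, which escort new histones to the fork, 0 passed on either fit. The median log2 fold change was -0.21 on age alone and -0.40 with the library set. At an unadjusted p under 0.05, 5 were lower on age alone, against 4.64% of all genes, and 12 with the library set, against 10.2%. Every aged library was below every young one in 3, against 2.78% of all genes, and above in 0, against 1.67%. DESeq2 called 1 of the 16, Nap1l4, lower with an adjusted p of 0.00633, against 1.01% of all genes. Chaf1a, of chromatin assembly factor 1, averaged 55.2 ± 11.6 CPM in aged mice and 81.1 ± 3.94 CPM in young mice, and its groups did not overlap. Of the 16 chaperones of variant histones, 0 passed on either fit and the median was -0.08.

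Markers of several cell types lay on one side of 0. All 15 erythroid markers tested had log2 fold changes below 0, with a median of -1.2, and their sum was 1990 to 7840 CPM in aged mice and 9830 to 11400 CPM in young mice. The 12 markers of B cell progenitors were all below 0, with a median of -0.91, and summed to 92.8 to 688 CPM in aged mice and 413 to 542 CPM in young mice. The 7 plasma cell markers were all above 0, with a median of 1.09, and summed to 457 to 1590 CPM in aged mice and 368 to 699 CPM in young mice. The 9 osteoblast markers were below 0, with a median of -1.64, and no listed marker of these 4 types was at 0 in every library. The 4 early neutrophil markers were all above 0, with a median of 0.59. Other lists were split: 5 late neutrophil markers were above 0 and 4 below, and 7 T and NK cell markers were above and 2 below. The part of cell composition in the histone values was not tested, and in bulk RNA fewer cells of a type and less RNA per cell cannot be told apart.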

How the data were processed

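One deposited table of 56980 genes held, for each of 9 libraries, estimated counts and TPM made by the authors; the quantifier is not given in the sources used here. Bowtie 0.12.2 and the build mm8 are what the submitters' processing notes name, so no coordinates are given. GENCODE M21 (GRCm38) held 52125 of the IDs, all 82 members among them, and this annotation supplied biotypes, overlaps and transcript sequence. The expected counts deposited by the authors were rounded. The log2 fold changes, p-values and adjusted p-values of the authors' deposited table are quoted only where named.

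Age alone was fitted in edgeR 4.0.16 (quasi-likelihood F test; R 4.3.3), with TMM scaling, genes kept by a minimum count of 10 and total of 15, and Benjamini-Hochberg adjustment over 16576 genes. DESeq2 1.42.0 and limma 3.58.1 (voom) were alternatives. CPM are TMM-scaled. Library totals of 19804883 to 23548594 set the depth, and counting error is part of the dispersion. The exact permutation test used log2(CPM + 0.1). No library was a duplicate: the smallest chi-square per gene between any pair was 17. The labels call the samples replicates of an age and give no separate source for each. Genes were named by rule: the 3 highest tested members of each family by TPM, all tested variants, members past the threshold, and the 4 replication-dependent members of smallest p; up to 4 genes by smallest p in other lists, with Slbp added after its values were seen. The members and lists, and the set of 3 libraries, were chosen with earlier results of these data known. Scripts were tested on simulated data.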

Additional observations from a re-analysis of the deposited data

Results flagged for a closer look

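Single libraries lay far from the rest of their group in 19 of 46 groups examined. Most were young 4 in CPM. The groups are genes and sums measured in the same libraries, so 1 shifted library is counted many times. The nominal rate of about 5% holds for independent groups and cannot serve as a chance level here. In young mice, young 4 was the high library for H1f2 at 218 CPM, where the other 3 had 75.9 to 87.0, and for H2bc4 at 130 CPM, where they had 35.2 to 38.5. It had H4c9 at 63.7 CPM, H2ac18 at 18.1 CPM, H3c14 at 5.29 CPM, H4c8 at 4.34 CPM and H3c8 at 1.22 CPM. Among the variants it had H3f3a at 1510 CPM, H2az1 at 1200 CPM, H3f3b at 1160 CPM, H2az2 at 214 CPM and H1f10 at 4.00 CPM. Its sums, 543 CPM for the replication-dependent genes and 4150 CPM for the variant genes, stood apart likewise.

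In aged mice, aged 3 was high for H1f5 at 2.27 CPM, H3c8 at 1.84 CPM and H1f10 at 3.06 CPM, and low for H3c3 at 0.122 CPM. Aged 4 was high for H2az1 at 1270 CPM, where the other aged libraries had 378 to 562 CPM. Young 4, aged 3 and aged 4 are the libraries with the highest ribosomal protein share, and the part of that difference in these values was not tested.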

How the results depend on the processing

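On age alone 0 members were called lower; DESeq2 called 1 and the library set term called 3. Leaving out each library under the set term, chosen after seeing the data, gave 0 to 3, and 0 to 1633 calls over all genes against 319. No alternative called a member higher. Medians and sums moved by less than their spread between libraries (0.49 to 0.68, log2), which itself contains the library set. Without young 4 the replication-dependent median was 0.01 and the variant median 0.39; the sums without aged 1 were 0.03 for both classes, and without aged 2 the variant sum was 0.04. With no low-count filter the replication-dependent median was -0.48. Sums in TPM (-0.05 and -0.08), and the replication-dependent sum without H1f2 and H2bc4 (-0.28), were also added after seeing the data.

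Of 458 values for 21 named members under other settings, 415 kept direction and side of the threshold, 4 passed it elsewhere only, and 39, in 16 members, changed sign, none called in either fit. The cause was not tested. Leaving out 1 library at a time gave ranges that crossed 0 for H1f2 (-0.26 to 0.47), H1f5 (-1.04 to 0.08), H2bc4 (-0.38 to 0.62), H3c8 (-0.32 to 0.55), H4c9 (-0.75 to 0.26), H4c17 (-0.03 to 0.32), H1f10 (-1.14 to 0.67), H2az1 (-0.58 to 0.29), H2az2 (-0.55 to 0.53), H3f3a (-0.37 to 0.03) and H3f3b (-0.12 to 0.48). Young 4 was the library left out at the changed sign, except for H3c8 (aged 3) and H3f3b (aged 3, aged 4, young 2 and young 3); aged 1, 2 and 5 also turned H1f2 and H2bc4. With the library set term they were -0.01 for H3c8 and H4c8 and -0.12 for H3f3b. Over the 6 other libraries they were 0.11 (H2ac19), -0.01 (H3c8), -0.04 (H4c8), 0.10 (H1f10) and -0.15 (H3f3b). Aged 3 and aged 4 against young 4 gave -0.47 (H3c14), -0.25 (H1f0) and -0.06 (H3f3b). Aged 5 against young 1 to 3 gave 0.16 (H1f2 and H2ac19), 0.41 (H2ac24), -0.70 (H3c8), -0.69 (H3c14) and -0.61 (H4c8). H1f2 was 0.04 by library totals.

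H2bc21 was negative in every alternative, from -1.12 to -0.84, and from -1.14 to -0.95 with each library left out under the set term; aged 5 against young 1 to 3 gave -0.84 ± 0.31 (SE). Same-numbered libraries of both ages share only a number: their deviations correlated at 0.456, 0.554, -0.387 and 0.739. With the replicate block, which drops aged 5, 0 members were called, the medians were -0.26 (replication-dependent) and -0.06 (variant), H2bc21 was -1.09 and H2bc4 was 0.07.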
